A study of Mus musculus with 18 samples.

Results

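The 10 genes described here encode 7 enzymes or subunits of the glycolytic chain from glucose to pyruvate (Hk1, Pfkp, Aldoa, Gapdh, Pgk1, Eno1 and Pkm), both common subunits of lactate dehydrogenase (Ldha and Ldhb) and a membrane carrier of lactate and pyruvate (Slc16a1, the protein MCT1). They were taken by name, not by a measured value, though with earlier results of these data known. All 10 were found among the 55416 gene identifiers of the deposited tables. RNA came from mouse optic nerve head, the site where ganglion cell axons leave the eye, cut out by laser capture microdissection, and 18 libraries were sequenced. The groups were B6.EDA+/+ at 22 months (3 libraries), C57BL/6J control at 22 months (5), B6.EDA+/+ at 12 months (5) and C57BL/6J control at 12 months (5). As background, the EDA+/+ allele forces the extra domain A exon into fibronectin transcripts, and the series concerns damage-associated molecules and fibroinflammatory change at the optic nerve head in glaucoma. No other allele or treatment is named, and neither sex nor the number of animals is given.

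Glycolysis splits glucose to pyruvate and yields ATP without oxygen. In a widely used model of nerve tissue, astrocytes and oligodendrocytes turn pyruvate into lactate, export it through monocarboxylate carriers, and axons take it up, convert it back to pyruvate and burn it in their mitochondria. The optic nerve head, where axons are unmyelinated and lie among astrocytes, is a place where this supply is much discussed. Lactate dehydrogenase is a tetramer of the Ldha product, which favours lactate formation in textbooks, and the Ldhb product, which favours pyruvate formation.

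One member makes different enzymes by choosing between 2 exons of equal length. Pkm encodes pyruvate kinase, which performs the last step of glycolysis. Its PKM1 exon gives a constitutively active enzyme and its PKM2 exon one that is switched on by fructose 1,6-bisphosphate. Both exons are printed because the share of PKM1 is one of the measurements below. They lie on the plus strand at chr9:59675029-59675195 (PKM1) and chr9:59675568-59675734 (PKM2) of GRCm38, are 167 nt each and are coding in the GENCODE M21 transcripts from which the letters were taken. Capitals mark the 64 positions at which they differ, which leaves 61.7% of positions identical.
PKM1 exon: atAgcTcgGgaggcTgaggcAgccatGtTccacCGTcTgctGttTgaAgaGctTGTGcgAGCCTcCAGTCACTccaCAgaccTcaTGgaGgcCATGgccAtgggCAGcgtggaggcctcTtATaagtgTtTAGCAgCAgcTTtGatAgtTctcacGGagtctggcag
PKM2 exon: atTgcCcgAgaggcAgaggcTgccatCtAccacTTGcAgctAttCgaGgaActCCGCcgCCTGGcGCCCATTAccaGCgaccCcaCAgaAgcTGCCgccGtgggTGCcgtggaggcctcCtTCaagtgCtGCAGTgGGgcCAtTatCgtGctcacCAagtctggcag

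The 18 libraries ranged over 13097498 to 18488733 expected counts each, with 9703 to 13048 genes at 10 or more reads. The exon that should separate the genotypes was looked at through the estimated levels of fibronectin isoforms. Among the isoforms that span it, its share of TPM was 0 to 58.5% (median 4.11%) in EDA-labelled libraries. In the control-labelled ones it was 0 to 100% (median 4.45%), with 0 in 4 of 8 and in 5 of 10, so it did not follow the labels. The 66.9 to 1485 reads behind these shares were counted over whole isoforms, not on the exon. Such shares can neither bear out nor refute a genotype, and genotypes below are given as labels. A single unnamed identifier, ENSMUSG00000119584, made up 3.26% to 32.8% of reads. The astrocyte markers Gfap, Aqp4, Slc1a2, Slc1a3, Aldh1l1, Gja1, Sox9 and S100b summed to 3312 to 19345 TPM, and 8 oligodendrocyte markers to 228 to 22907 TPM. Gfap held most of each astrocyte sum, at a median of 5622 TPM, beside 480 TPM for Slc1a3, the next highest. Photoreceptor markers reached 4436 TPM in replicate 2 of the 22-month control-labelled libraries, and skeletal muscle markers 270.1 TPM in replicate 1 of the 22-month EDA-labelled ones. In the members themselves 2 libraries stood apart. EDA-labelled replicate 4 at 12 months, which had the 19345 TPM of astrocyte markers, was the highest of all 18 for Gapdh, Pfkp and Ldha and the lowest for Pkm, Ldhb and Pgk1. EDA-labelled replicate 3 at 22 months, with the fewest detected genes and the lowest astrocyte marker sum, was the lowest for Hk1, Pfkp, Aldoa and Eno1. Results of the members that moved most without these 2 libraries are given with and without them. The part that tissue makeup played in any result was not tested.

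TPM values are read counts scaled for transcript length and library depth, so they order the members against each other. Gapdh, which oxidises glyceraldehyde 3-phosphate, stood far above the rest at a median of 11269 TPM over the 18 libraries and took 0.634% to 1.87% of reads. Pkm followed at 834 TPM and Aldoa, the aldolase that splits fructose 1,6-bisphosphate, at 343 TPM. The middle of the range held Ldhb (74.5 TPM), Hk1 (49.1 TPM), the hexokinase that phosphorylates glucose at the mitochondrial surface, and Ldha (34.015 TPM). Below them were enolase Eno1 (18.4 TPM), the platelet-type phosphofructokinase Pfkp (13.8 TPM), phosphoglycerate kinase Pgk1 (5.53 TPM) and Slc16a1 (3.53 TPM).

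Some neighbours in that order could be told apart in nearly every library and others could not. Gapdh exceeded Pkm in 18 of 18 libraries, Pkm exceeded Aldoa in 17, and Aldoa exceeded Ldhb in 17. Hk1 exceeded Ldha in only 8 of 18, Eno1 exceeded Pfkp in 11 and Pgk1 exceeded Slc16a1 in 12, so those 3 pairs have no settled order. The level of Pkm is the least secure, because RSEM placed 74.3% of its TPM on isoforms under 1000 nt, and 51.2% on a single annotated transcript of 356 nt. Short isoforms also held 40.4% of Ldha and 32.7% of Pfkp TPM, against 1.34% for Gapdh.

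**Figure D1:**
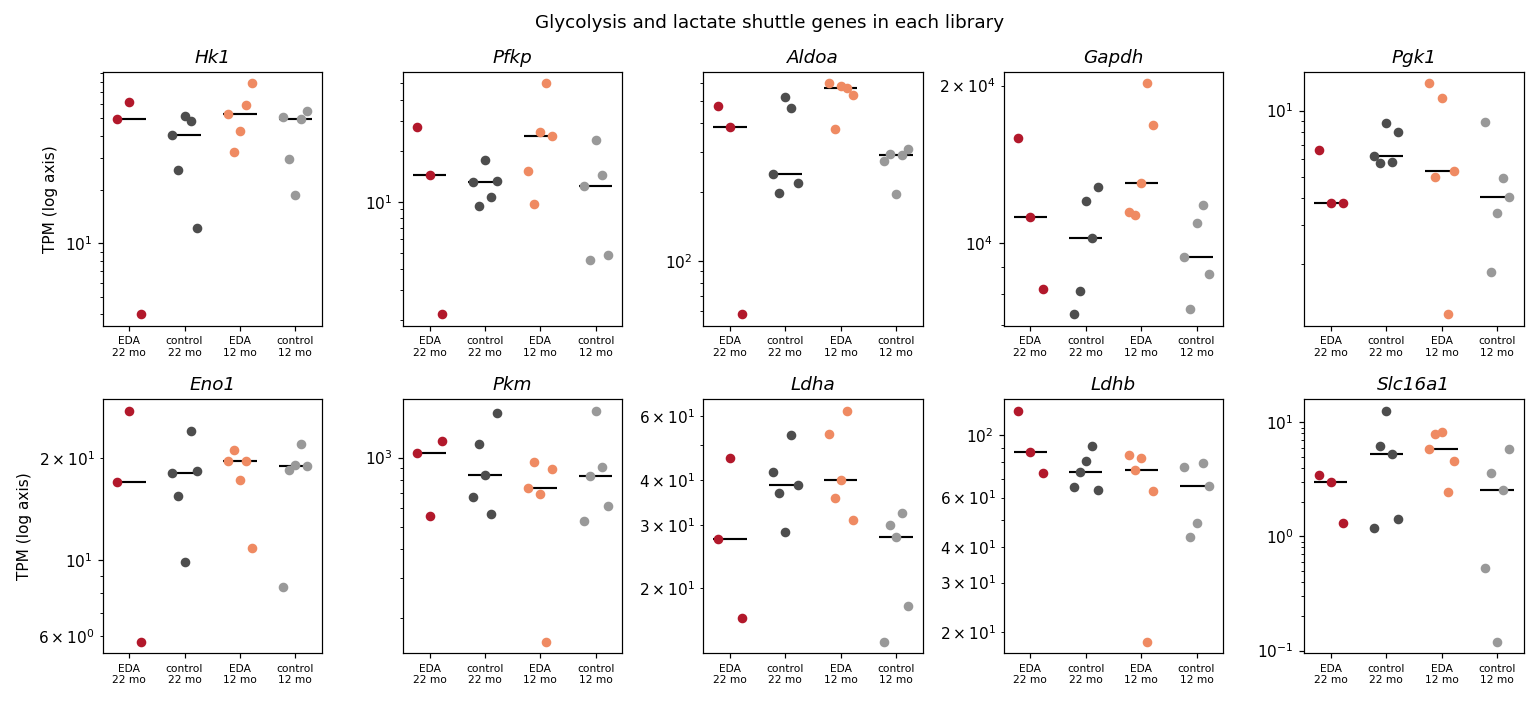
TPM of each of the 10 genes in each library on log axes, with the 4 groups side by side and a line at each group's median. Gapdh lies at 7326 TPM or higher in all libraries, and the lowest points of Pkm and Ldhb are the same library of the 12-month EDA-labelled group, at 158 and 18.6 TPM.

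The members also differed in how steady they were. Gapdh varied 2.76-fold between its lowest and highest library, the least of the 10, and Slc16a1 varied 106-fold, from 0.12 to 12.7 TPM. Pfkp varied 23.2-fold and Hk1 19.6-fold. These ranges mix the groups with the spread between libraries of a group.

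No member passed the test in any comparison. With edgeR's quasi-likelihood test and Benjamini-Hochberg adjustment over 15118 genes, 0 of 10 members had an adjusted p under 0.05 between genotype labels at either age, between ages under either label, or in the interaction of label and age, against a background of 0% of all genes in each of these 5 comparisons. At an unadjusted p under 0.05 the background was 3.96% of genes for label at 22 months, 4.56% for label at 12 months, 3.51% for age in control-labelled, 4.98% for age in EDA-labelled libraries and 4.02% for the interaction. By that looser rule 0, 1, 0, 1 and 0 members were counted in the same order, namely Aldoa and Ldhb. The gene counts behind those shares were 599, 689, 530, 753 and 608, while DESeq2 called 35, 22, 23, 43 and 37 genes at an adjusted p under 0.05, with no member among them. In bulk tissue, fewer cells of a type and less RNA per cell cannot be told apart.

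The signs of the fitted differences leaned one way in some comparisons, in part through the 2 libraries that stood apart. EDA-labelled libraries lay above control-labelled ones for 8 of 10 members at 12 months and for 4 of 10 at 22 months, where 49.5% and 46% of all genes did. The median difference of the members at 12 months was 0.38 on the log2 scale, beside -0.01 over all genes, and at 22 months it was -0.07, beside -0.07 over all genes. Libraries of 22 months lay above those of 12 months for 8 of 10 members under the control label (median 0.21, beside 0.02 over all genes; 51.6% of genes above 0). Under the EDA label they did for 2 of 10 (median -0.43, beside -0.06 over all genes; 46.9% of genes above 0). For the interaction 2 of 10 members were above 0 (median -0.52, beside -0.07 over all genes), where 47.2% of genes were. Without the 2 libraries that stood apart, the counts above 0 were 6 of 10 for label at 22 months (median 0.14), 9 of 10 for label at 12 months (median 0.35), 5 of 10 for age under the EDA label (median -0.013) and 3 of 10 for the interaction (median -0.11). Without them the median at 22 months thus changed sign and the lean between ages under the EDA label was gone, while 8 of 10 were above 0 for age under the control label (median 0.23). With voom quality weights the interaction was above 0 for 4 of 10, at a median of -0.12. The comparisons share groups pairwise, so these counts are not separate pieces of evidence. On the TPM scale the share of genes above 0 at 12 months was 60.3%, and the median over all genes moved to 0.15, while 8 of 10 members again lay above 0. In the age comparison under the EDA label it was 41.9% of genes on the TPM scale, with a median of -0.12, again with 2 of 10 members above 0. For the other label and age comparisons the TPM scale gave 49.3% of genes above 0 at 22 months, with 2 of 10 members, and 51.9% for age under the control label, with 8 of 10.

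**Figure D2:**
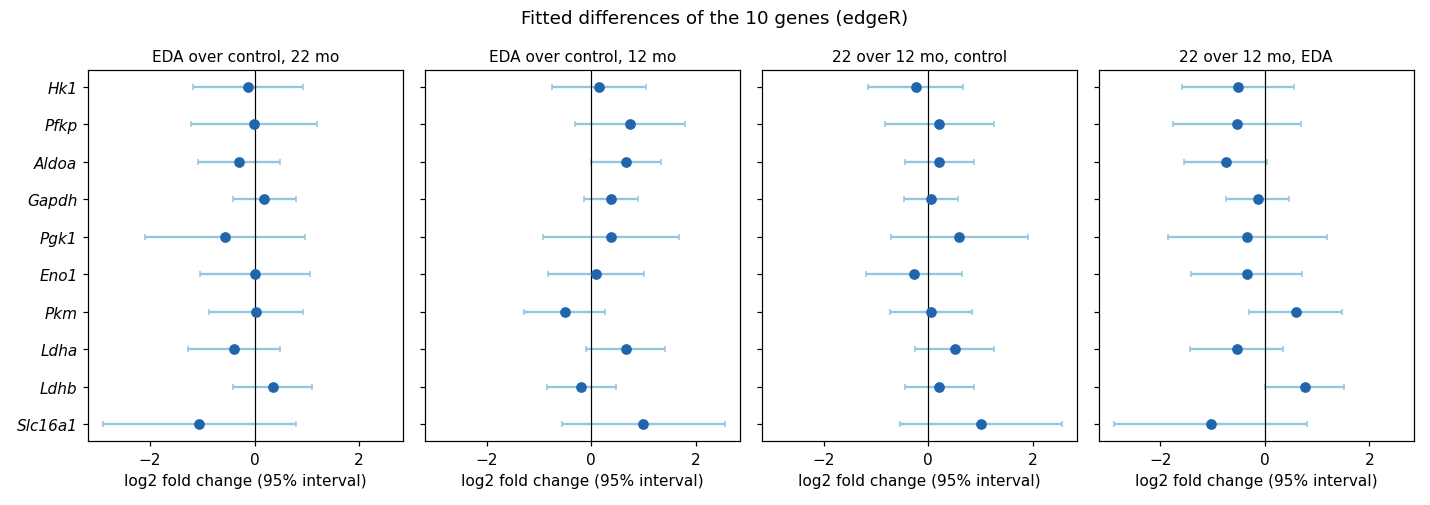
Fitted log2 fold change of each gene (points) with its 95% interval (bars) in 4 panels, EDA over control label at 22 and at 12 months and 22 over 12 months under the control and the EDA label. The interval lies wholly above 0 only for Aldoa at 12 months and for Ldhb between ages under the EDA label, and neither passes after adjustment.

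The entry of glucose into the chain is represented by Hk1 and Pfkp. Hk1 (chr10:62268855-62379908, minus strand, GRCm38 as for all gene positions here) had 49.6, 62.0 and 4.01 TPM in EDA-labelled libraries and 40.3, 25.7, 51.7, 48.6 and 12.1 TPM in the control-labelled ones at 22 months. At 12 months it had 52.6, 32.3, 42.8, 59.8 and 78.5 TPM in EDA-labelled libraries and 51.0, 29.7, 18.7, 49.6 and 55.2 TPM in the control-labelled ones. All groups overlapped, and the lowest library, at 4.01 TPM, decided the sign at 22 months. The fitted difference between labels was -0.13 ± 0.51 (SE) at 22 months, and 0.36 ± 0.38 without the 2 libraries that stood apart. At the earlier age it was 0.15 ± 0.44.

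Hexokinase 2 (Hk2), the insulin-responsive form in muscle and fat, is the second hexokinase of this comparison. Hk1 made up 83.9% ± 11.5 of the summed Hk1 and Hk2 TPM in EDA-labelled libraries (SD, n = 3) and 77.2% ± 8.85 in the control-labelled ones (SD, n = 5) at 22 months. At the age of 12 months it made up 76.5% ± 12.3 in EDA-labelled libraries and 80.3% ± 5.11 in the control-labelled ones (SD, n = 5 each). Hk1 was thus the larger form in all libraries, with a lowest share of 62.1%. Over the 4 comparisons between groups the exact two-sided permutation p-values of this share ran from 0.393 to 0.563. Adjusted over 16 share tests they were 0.786 to 0.810.

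Pfkp (chr13:6579768-6648777, minus strand) catalyses the committed step of glycolysis together with Pfkl and Pfkm, the liver and muscle types. At 22 months it had 2.16 to 27.6 TPM (median 14.5) in EDA-labelled libraries and 9.49 to 17.7 TPM (median 13.1) in the control-labelled ones. In the 12-month groups it had 9.69 to 50.02 TPM (median 24.6) in EDA-labelled libraries and 4.53 to 23.1 TPM (median 12.4) in the control-labelled ones. The 12-month difference between labels was 0.75 ± 0.50 on the log2 scale, and 0.59 ± 0.46 without the 2 libraries that stood apart. With the read share of ENSMUSG00000119584 as a covariate it was 0.31 ± 0.49. The 22-month difference was -0.01 ± 0.58, and -0.66 ± 0.61 with that covariate. Pitrm1 overlaps Pfkp on the other strand, with a median of 180 reads beside 364 for Pfkp. Its share of the summed reads of the pair ran from 16.5% to 67.5% over the libraries. Since the library kit keeps no strand, reads of the pair cannot be fully separated.

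Pfkp was a minor isoenzyme. It made up 1.22% ± 0.96 of phosphofructokinase TPM in EDA-labelled libraries (SD, n = 3) and 1.33% ± 0.43 in the control-labelled ones (SD, n = 5) at 22 months, and 3.96% ± 4.86 in EDA-labelled libraries and 1.33% ± 0.62 in the control-labelled ones at 12 months (SD, n = 5 each). The high mean of the 12-month EDA-labelled group came from replicate 4, at 12.6%, beside 1.19% to 2.53% in the other 4 libraries. In that library Pfkl was at 4.16 TPM, beside a median of 816 TPM in its own group. The 22-month EDA-labelled and both control-labelled groups had 467 to 1747 TPM of Pfkl. Pfkp was at 50.02 TPM there, the highest of all libraries, with the next at 27.6 TPM. The denominator was thus small and the numerator large. The exact permutation p of the 12-month difference in share was 0.151, and 0.653 after adjustment over the 16 share tests.

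Aldoa (chr7:126795234-126800751, minus strand) came nearest to a difference between labels. Among 12-month libraries it had 598.5, 378, 583, 571 and 532 TPM in EDA-labelled libraries, against 274, 295, 197, 289.7 and 308 TPM in the control-labelled ones. In TPM the 5 EDA-labelled libraries all lay above the 5 control-labelled ones, which was so, in that direction, for 1.61% of all genes. On log2 CPM (library-scaled read counts on a log2 scale, after TMM scaling) the groups overlapped slightly, at 8.32 to 8.90 in EDA-labelled libraries and 7.57 to 8.34 in the control-labelled ones. The fitted difference was 0.67 ± 0.32 (SE), with an unadjusted p of 0.0489 and an adjusted p of 1 in edgeR. It was 0.60 to 0.76 with any 1 library of the compared groups or both libraries that stood apart left out.

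Beside the Aldoa values, astrocyte marker sums were 6903 to 19345 TPM in EDA-labelled libraries and 3724 to 7436 TPM in the control-labelled ones at 12 months. Most of each sum was Gfap. The share of reads on ENSMUSG00000119584 was 3.26% to 16.8% in the EDA-labelled libraries and 11.3% to 31.03% in the control-labelled libraries. With that share as a covariate the Aldoa difference was 0.74 ± 0.37, and the part of the astrocyte signal was not tested. At 22 months Aldoa had 477, 387 and 58.3 TPM in EDA-labelled libraries and 240.2, 199, 524, 469 and 218 TPM in the control-labelled ones, which overlapped. The 22-month difference was -0.30 ± 0.37, and 0.11 ± 0.28 without the 2 libraries that stood apart. The interaction, which asks whether the label difference itself differed between ages, was -0.97 ± 0.49 (edgeR, unadjusted p = 0.0636, adjusted p = 1.00), and -0.53 ± 0.36 without those 2 libraries.

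Aldoc, the aldolase typical of astrocytes, had the opposite sign at 12 months. It averaged 147 ± 113 TPM in EDA-labelled libraries and 274 ± 93.2 TPM in the control-labelled ones (SD, n = 5 each), a fitted difference of -1.22 ± 0.59 with an adjusted p of 1 in edgeR. On log2 CPM all EDA-labelled libraries lay below the control-labelled ones, as for 0.423% of all genes in that direction, while in TPM they overlapped.

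Gapdh (chr6:125161715-125166467, minus strand) had 15881, 11212 and 8187 TPM in EDA-labelled libraries and 7326, 8099, 12041, 10249 and 12806 TPM in the control-labelled ones at 22 months. At 12 months it had 11488, 11325.5, 13052.5, 20189 and 16789 TPM in EDA-labelled libraries and 9415, 7513, 10925, 11852 and 8734 TPM in the control-labelled ones. The groups overlapped at both ages, although 3 of the 5 12-month EDA-labelled libraries lay above every control-labelled one of that age. The fitted differences between labels were 0.19 ± 0.29 at 22 months and 0.38 ± 0.25 at 12 months, and the 12-month one was 0.23 ± 0.19 without the 2 libraries that stood apart. With the read share of ENSMUSG00000119584 as a covariate the 22-month value turned to -0.16 ± 0.26, and the 12-month value fell to 0.10 ± 0.22. The annotation holds 163 genes of similar sequence, 155 of them pseudogenes. All 163 together held 5.78% to 10.4% of the summed counts, so the Gapdh level depends on how RSEM divided shared reads. The largest holder among them was Vmn2r60, with 62241.5 of their 202568 counts over all libraries.

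Pgk1 (chrX:106187100-106203699, plus strand) makes the first ATP of the chain. It had 3.80 to 6.61 TPM in EDA-labelled libraries and 5.75 to 8.78 TPM in the control-labelled ones at 22 months, and 1.18 to 13.3 TPM in EDA-labelled libraries and 1.83 to 8.88 TPM in the control-labelled ones at 12 months. Differences between labels were -0.57 ± 0.73 and 0.37 ± 0.62 at 22 and 12 months. Only 21 to 233 reads stood behind a value, and 4 pseudogenes held up to 18.9% of the summed counts in a library. Close to it in the chain, triosephosphate isomerase Tpi1 was as low, at a median of 2.34 TPM in EDA-labelled libraries and 4.59 TPM in the control-labelled ones at 22 months, while phosphoglycerate mutase Pgam1 had a median of 254.5 TPM in EDA-labelled libraries and 288 TPM in the control-labelled ones. Neighbouring steps of one pathway thus differed widely in measured level in the same libraries.

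Eno1 (chr4:150236721-150248879, plus strand) had nearly equal mean TPM in the 4 groups. It averaged 16.8 ± 10.9 TPM in EDA-labelled libraries (SD, n = 3) and 17.2 ± 5.13 TPM in the control-labelled ones (SD, n = 5) at 22 months, and 17.7 ± 4.09 TPM in EDA-labelled libraries and 17.4 ± 5.22 TPM in the control-labelled ones at 12 months (SD, n = 5 each). The differences between labels were 0.01 ± 0.51 and 0.09 ± 0.44. Their 95% intervals, -1.05 to 1.07 and -0.82 to 1.01, leave room for up to about a doubling either way, so the small estimates do not show equal levels.

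Pkm (chr9:59656368-59679375, plus strand) had 1045, 559 and 1183 TPM in EDA-labelled libraries and 676, 1149, 839, 565 and 1559.6 TPM in the control-labelled ones at 22 months. At the age of 12 months it had 735, 960.05, 694, 158 and 889 TPM in EDA-labelled libraries and 528, 830.0, 1601, 908 and 618 TPM in the control-labelled ones. The library at 158 TPM lay far below the rest and the groups overlapped. Differences between labels were 0.02 ± 0.43 at 22 months and -0.51 ± 0.38 at 12 months, and -0.32 ± 0.39 and -0.29 ± 0.31 without the 2 libraries that stood apart.

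The PKM2 exon printed above was the main one in all libraries. Of the Pkm isoforms that carry either exon, those with the PKM1 exon held 4.66% ± 4.11 of TPM in EDA-labelled libraries (SD, n = 3) and 3.76% ± 2.40 in the control-labelled ones (SD, n = 5) at 22 months. At 12 months they held 9.26% ± 10.7 in EDA-labelled libraries and 6.06% ± 3.86 in the control-labelled ones (SD, n = 5 each). The highest share, 27.4%, belonged to the 12-month EDA-labelled replicate 4, and without it the 12-month difference turned to -1.34 percentage points. Exact permutation p-values over the 4 comparisons were 0.286 to 0.786, and 0.653 to 0.838 after adjustment over the 16 share tests. The PKM2 isoform averaged 209 TPM and the longer PKM1 isoform 10.95 TPM over the 18 libraries, while 440.3 TPM lay on the 356 nt transcript that holds neither exon.

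**Figure D3:**
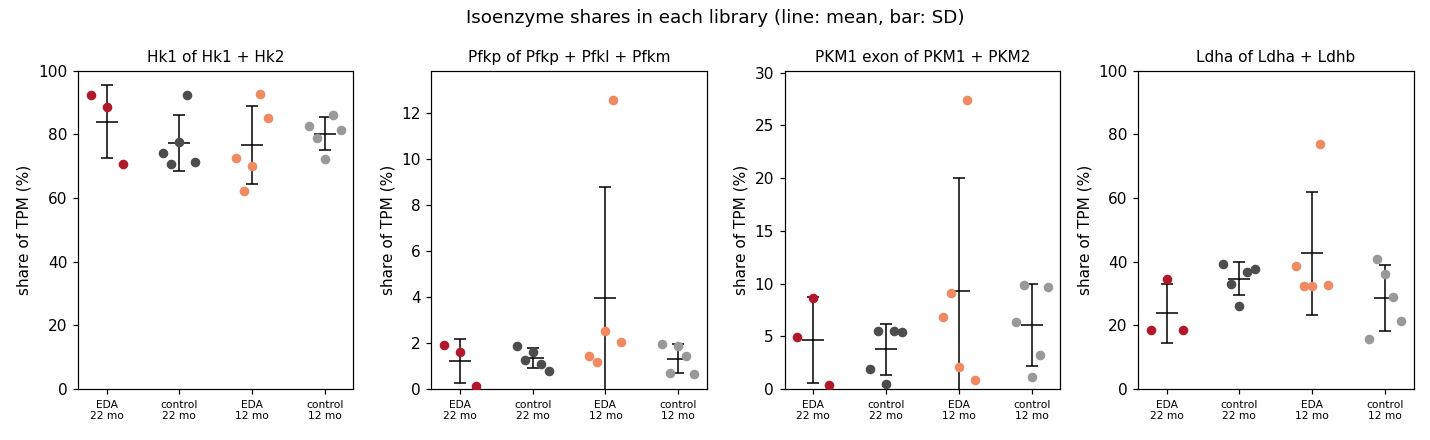
Share of TPM in percent, in each library (points) with the group mean and SD (lines and bars), for Hk1 among Hk1 and Hk2, Pfkp among the phosphofructokinases, the PKM1 exon among PKM1 and PKM2, and Ldha among Ldha and Ldhb. Replicate 4 of the 12-month EDA-labelled group is the highest point of each share, at 92.8% for Hk1, 12.6% for Pfkp, 27.4% for the PKM1 exon and 77.0% for Ldha.

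At the lactate branch, Ldha (chr7:46841475-46855627, plus strand) had 27.5, 45.8 and 16.5 TPM in EDA-labelled libraries and 42.1, 36.7, 28.6, 53.1 and 38.6 TPM in the control-labelled ones at 22 months. In the 12-month groups it had 53.4, 35.7, 39.8, 62.2 and 30.9 TPM in EDA-labelled libraries and 14.2, 30.0, 27.7, 32.3 and 17.8 TPM in the control-labelled ones. At 12 months 4 of 5 EDA-labelled libraries lay above all control-labelled ones in TPM, but only 2 of 5 did on log2 CPM (5.12 and 5.62, against 4.97 in the highest control-labelled library), and at 22 months the groups overlapped. The label differences had opposite signs at the 2 ages, -0.39 ± 0.43 at 22 and 0.66 ± 0.37 at 12 months. Leaving out libraries moved the 22-month value between -0.84 (without EDA-labelled replicate 2) and -0.18 (without EDA-labelled replicate 3), and to -0.25 without EDA-labelled replicate 1 and -0.23 without control-labelled replicate 2. Their difference, the interaction, was -1.05 ± 0.56 (edgeR, unadjusted p = 0.0763, adjusted p = 1.00), and -0.66 ± 0.55 without the 2 libraries that stood apart.

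Ldhb (chr6:142490249-142507957, minus strand) had 121.8, 86.8 and 73.2 TPM in EDA-labelled libraries and 65.3, 74.1, 80.5, 91.4 and 63.7 TPM in the control-labelled ones at 22 months. Among 12-month libraries it had 85.0, 74.8, 82.7, 18.6 and 63.5 TPM in EDA-labelled libraries and 77.0, 43.4, 48.6, 79.2 and 65.9 TPM in the control-labelled ones. Between ages under the EDA label the fitted difference was 0.76 ± 0.36, with an unadjusted p of 0.0471 and an adjusted p of 0.961 in edgeR. On log2 CPM the 22-month libraries, at 5.86 to 6.37, all lay above the 12-month libraries, at 3.81 to 5.81, as 1.76% of all genes did in that direction, while in TPM they overlapped. The library at 18.6 TPM weighed on this: without it and the other library that stood apart the difference was 0.44 ± 0.27.

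The balance of the 2 subunits was also compared as a share, which does not depend on scaling between libraries. Ldha held 18.4%, 34.6% and 18.4% of their summed TPM in EDA-labelled libraries and 39.2%, 33.1%, 26.2%, 36.8% and 37.8% in the control-labelled ones at 22 months. At the earlier age it held 38.6%, 32.3%, 32.5%, 77.0% and 32.7% in EDA-labelled libraries and 15.6%, 40.9%, 36.3%, 28.999% and 21.3% in the control-labelled ones. Ldhb was thus the more abundant subunit in 17 of 18 libraries. The mean shares differed by -10.8 percentage points between labels at 22 months (exact two-sided permutation p = 0.107, 0.653 after adjustment over 16 tests). At 12 months they differed by 14.03 percentage points (exact two-sided permutation p = 0.198, also 0.653 after adjustment), and by 5.43 without replicate 4. The smallest p that 3 against 5 libraries allow is 0.0357, and 0.00794 for 5 against 5.

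Slc16a1 (chr3:104638668-104658462, plus strand), the proton-linked carrier of lactate, had the lowest median TPM over the 18 libraries and the widest fold range. At 22 months it had 3.47, 3.02 and 1.31 TPM in EDA-labelled libraries and 1.19, 6.22, 12.7, 5.33 and 1.41 TPM in the control-labelled ones. At 12 months it had 5.80, 7.96, 8.17, 2.46 and 4.54 TPM in EDA-labelled libraries and 0.53, 3.58, 0.12, 2.54 and 5.86 TPM in the control-labelled ones. The groups overlapped at both ages, and single values rested on 6 to 552 reads. With the read share of ENSMUSG00000119584 as a covariate the label difference was 0.01 ± 0.89 at 22 months. At 12 months it was 2.01 ± 0.83 with that covariate (edgeR, adjusted p = 0.906). Without the covariate, label differences were -1.06 ± 0.89 at 22 months and 1.00 ± 0.75 at 12 months, and the interaction was -2.05 ± 1.16 (edgeR, unadjusted p = 0.0925, adjusted p = 1.00). Between ages it was 1.02 ± 0.75 under the control label and -1.04 ± 0.89 under the EDA label. Single control-labelled libraries moved these values by over 1.5 times. Without replicate 3 at 22 months the label difference at that age was -0.58 and the age difference under the control label 0.54. Without replicate 5 at 12 months the label difference at that age was 1.51 and the age difference under the control label 1.53. Without the 2 libraries that stood apart, the label differences were -0.90 ± 1.01 at 22 months and 1.19 ± 0.77 at 12 months, the age difference under the EDA label -1.07 ± 1.05 and the interaction -2.09 ± 1.30.

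The glucose carrier Slc2a1 (GLUT1) was well above these levels, at 111 to 135 TPM in EDA-labelled libraries and 45.5 to 136 TPM in the control-labelled ones at 22 months. Other monocarboxylate carriers were low. Slc16a3 (MCT4), the exporter of glycolytic cells, had 1.81 to 4.79 TPM in EDA-labelled libraries and 0 to 1.52 TPM in the control-labelled ones at 12 months, from 172 and 32 reads in all. Its fitted difference was 2.43 ± 1.61, with an adjusted p of 1 in edgeR. The 12-month groups did not overlap in TPM, as for 1.61% of all genes in that direction, but overlapped on log2 CPM. Slc16a7 (MCT2), the high-affinity carrier known from neurons, ran from 0 to 14.3 TPM in EDA-labelled libraries and 0 to 14.04 TPM in the control-labelled ones at 22 months. Basigin (Bsg), the chaperone that brings MCT1 and MCT4 to the membrane, was far higher, at 57.8 to 86.5 TPM in EDA-labelled libraries and 52.0 to 74.2 TPM in the control-labelled ones at 22 months.

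**Figure D4:**
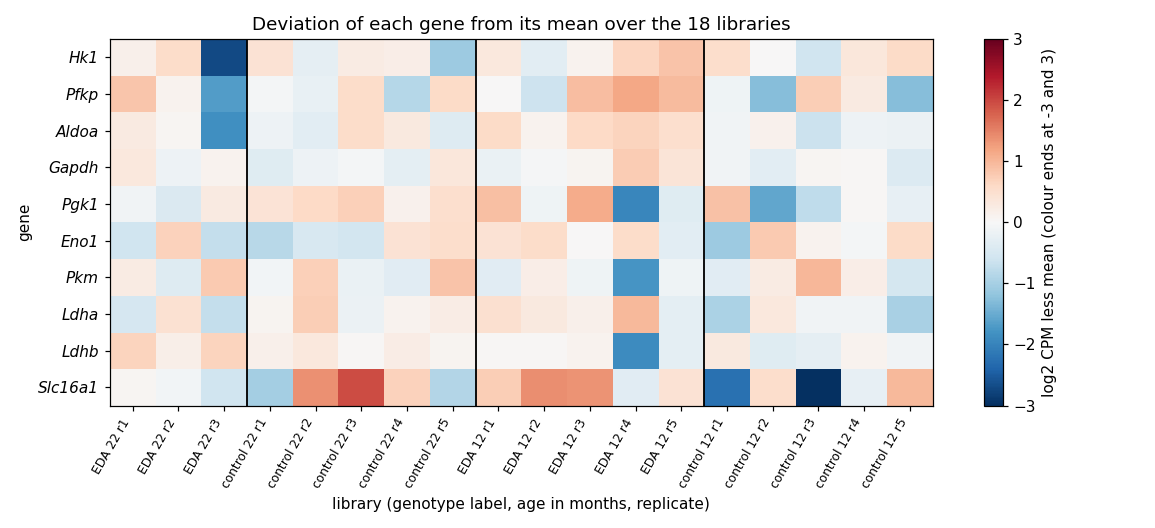
Log2 CPM of each gene less its mean over the 18 libraries, one column per library in group order, red above and blue below the mean. Replicate 4 of the 12-month EDA-labelled group is blue for Pgk1, Pkm and Ldhb and red for Pfkp, Gapdh and Ldha, and replicate 3 of the 22-month EDA-labelled group is blue for Hk1, Pfkp and Aldoa.

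The members did not move as a block across libraries. After group means were subtracted from log2 CPM, 19 of the 45 pairs of members correlated positively and 26 negatively over the 18 libraries, with a median Pearson r of -0.06. Only 2 pairs passed by both coefficients after Benjamini-Hochberg adjustment over the 45 pairs (100000 permutations within groups). Ldhb and Pgk1 went together, with r = 0.849 (adjusted permutation p = 0.00405) and rho = 0.761 (adjusted permutation p = 0.0195). Hk1 and Pkm went against each other, with r = -0.670 (adjusted permutation p = 0.00698) and rho = -0.759 (adjusted permutation p = 0.0195).

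Both pairs held their sign without the libraries farthest out in 1 gene of the pair. Ldhb and Pgk1 had r = 0.713 without the 2 libraries farthest from the median of Ldhb, and 0.757 without the 2 libraries that stood apart. Hk1 and Pkm had -0.664 without the 2 libraries farthest from the median of Hk1, and -0.849 without the 2 that stood apart. Ldha and Ldhb had r = -0.503 and rho = -0.408, which did not pass (adjusted permutation p = 0.203 and 0.537). Aldoa and Hk1 had the highest r, 0.872, but it missed the threshold (adjusted permutation p = 0.0614) and was 0.599 without the 2 libraries that stood apart. Gapdh and Pfkp passed by rho alone, at 0.765 (adjusted permutation p = 0.0195), with r = 0.637 (adjusted permutation p = 0.0614), which was 0.778 without those 2 libraries. All values of a library share its depth and tissue makeup, so a correlation here describes these libraries.

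**Figure D5:**
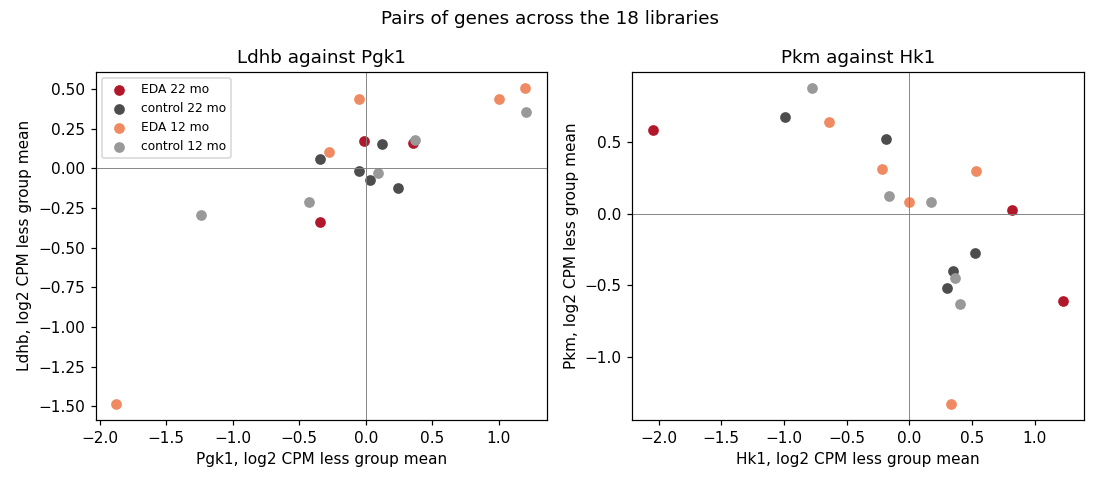
Log2 CPM less the group mean, per library, for Ldhb against Pgk1 and for Pkm against Hk1, coloured by group. The first cloud climbs (r = 0.849) with 1 library of the 12-month EDA-labelled group at its lower end, and the second descends (r = -0.670).

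Outside the list, the genes that followed the mean of the 10 members most closely across the 18 libraries, after group means were subtracted, were Slc27a4 (r = 0.846), Fuca2 (0.841), Thsd7a (0.839), Rgma (0.838) and Stxbp3 (0.836). They are the first 5 of 4383 named genes whose mean log2 CPM was 4 or more, ranked by Pearson r, and are given as a description.

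The rest of the pathway gave the same count. None of 14 other glycolytic enzymes, 9 glucose and monocarboxylate carriers, 11 regulators of glycolysis, 15 genes of pyruvate entry into mitochondria or 18 genes of glycogen, pentose phosphate and polyol paths passed in any of the 5 comparisons (edgeR, adjusted over all genes). These were the members of lists of 21, 13, 14, 15 and 19 genes that had enough counts to be tested. For the label at 22 months the median differences of the 5 lists were -0.40, -0.03, 0.73, -0.00 and 0.02 in that order, beside -0.07 over all genes, and at 12 months -0.08, -0.22, 0.03, -0.31 and -0.06, beside -0.01. For age they were 0.05, -0.13, -0.04, -0.14 and -0.09 under the control label, beside 0.02, and -0.21, -0.15, 0.72, -0.03 and -0.10 under the EDA label, beside -0.06. The medians were the same with genes at 0 in a whole group set to the bound that 3 counts over the group give.

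The regulators had the highest median of these lists in both comparisons of the 22-month EDA-labelled libraries, which those comparisons share. Pfkfb3, whose product makes the activator of phosphofructokinase, had 112 to 637 TPM in EDA-labelled libraries and 62.9 to 384 TPM in the control-labelled ones at 22 months, a difference of 1.30 ± 0.60. Mlxip, a glucose-sensing transcription factor, had 34.5 to 51.6 TPM in EDA-labelled libraries and 17.6 to 35.8 TPM in the control-labelled ones, a difference of 0.89 ± 0.38. Txnip, a glucose-induced inhibitor of glucose uptake, had at least 16.5 TPM at 22 months and at most 13.5 TPM at 12 months under the EDA label, a difference of 1.47 ± 0.52. These 3 differences had adjusted p-values of 1, 1 and 0.961 in edgeR, so none was called. In log2 CPM the EDA-labelled libraries did not overlap the control-labelled ones for Mlxip, as for 1.32% of genes in that direction, and the ages did not overlap for Txnip, as for 1.76%.

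Among the enzymes, Hk2 had 1.65 to 7.91 TPM at 22 months and 4.62 to 19.7 TPM at 12 months under the EDA label, a difference of -1.36 ± 0.47. The muscle-type Pfkm differed by -0.79 ± 0.35 in the same comparison, where it had 65.7 to 145 TPM at 22 months and 136.5 to 343 TPM at 12 months, without overlap in log2 CPM, as for 2.72% of genes in that direction. The lowest Pfkm value at 22 months and the highest at 12 months were in the 2 libraries that stood apart. So was the lowest Hk2 value at each age. Differences without those 2 libraries are not given for these genes. Muscle enolase Eno3 had 4.82 to 28.7 TPM (median 24.0) in EDA-labelled libraries and 0.90 to 9.70 TPM in the control-labelled ones at 22 months. Of the 3 EDA-labelled libraries 1 carried the muscle markers given above, and the others had 2.74 and 0.11 TPM of them. The part of muscle in the Eno3 values was not tested. Hk3 was listed at 0 in all 3 EDA-labelled libraries at 22 months and in 3 of the 5 control-labelled ones, and Pygl in all 3 and in 2 of 5.

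Of the genes beyond pyruvate and in side paths, Pcx, which makes oxaloacetate from pyruvate and is known from astrocytes, had the smallest p for age under the control label. It had 10.2 to 25.7 TPM at 22 months and 21.4 to 59.4 TPM at 12 months there, a difference of -0.92 ± 0.33. Between labels at 22 months it differed by 0.82 ± 0.37. Khk, the first enzyme of fructose use, had 3.02 to 28.97 TPM in EDA-labelled libraries and 26.4 to 95.1 TPM in the control-labelled ones at 12 months, a difference of -2.09 ± 0.59 and the smallest unadjusted p of all the pathway genes at that age (0.00219, adjusted p = 1 in edgeR). The adjusted p of both Pcx differences was also 1.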

How the data were processed

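Per the labels' protocols, RNA of laser-captured sections was turned into cDNA with SMART-Seq v4 and into libraries with Nextera XT, sequenced in pairs, aligned with STAR and quantified with RSEM. The genome build GRCm39 is named per the submitters' processing notes, with the annotation and the tools' versions not given in the sources used here. The deposited tables hold the authors' expected counts (estimated, 3.59% of values not whole, rounded before count tests) and the authors' TPM, per gene and isoform. Symbols, positions and exons came from GENCODE M21 (GRCm38, another build), which matched 52083 of 55416 identifiers.

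After filterByExpr (15118 genes) and TMM scaling, edgeR 4.0.16 quasi-likelihood models (robust, a mean per group, all 18 libraries) gave 5 two-sided contrasts, with Benjamini-Hochberg adjustment over all genes and calls at an adjusted p under 0.05. The error beside each log2 fold change is its SE. Log2 CPM used a prior count of 2. Isoenzyme shares used exact permutation tests and pairs of members 100000 permutations of values less group means. Similar genes were found with BLAST 2.17.0 (at least 90% identity over 150 nt). Alternatives used DESeq2 1.42.0, limma 3.58.1 and other scalings, filters, covariates and samples. Code was tested on simulated data.

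The members and lists were chosen with earlier results of these data known. Named were all members and, per pathway list and comparison, up to 3 tested genes of smallest unadjusted p, from which the text draws, while Pfkl, Tpi1 and Pgam1 were added for their place in the pathway after their values were seen. Replicates were numbered in accession order. Within groups, every pair of libraries differed by more than sampling noise (lowest chi-square per degree of freedom 39.2). The labels do not say that libraries came from separate animals, so p-values measure the spread between libraries, which may be technical. Xist exceeded Y-linked transcripts in 5 libraries, 3 of them EDA-labelled. They were EDA-labelled replicate 1 at 22 months and, at 12 months, EDA-labelled replicates 4 and 5 and control-labelled replicates 1 and 2. The count was 0 among 22-month control-labelled libraries. This balance thus differed in the comparisons that include a 22-month group, while the 12-month groups had equal numbers of such libraries.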

Additional observations from a re-analysis of the deposited data

Results flagged for a closer look

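In 3 of 42 groups of values tested, 1 library lay further from the rest than Dixon's 95% limit allows, and chance flags about 1 group in 20. Ldha held 77.0% of summed Ldha and Ldhb TPM in replicate 4 of the 12-month EDA-labelled libraries, beside 32.3% to 38.6% in the other 4. Pfkp held 12.6% of phosphofructokinase TPM in that same library, beside 1.19% to 2.53% in the other 4. Eno1 was at 8.36 TPM in replicate 1 of the 12-month control-labelled libraries, beside 18.5 to 22.0 TPM in the other 4. The group of 3 libraries was not tested in this way.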

How the results depend on the processing

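No member was called under any alternative run, with a lowest adjusted p of 0.483 over 841 recomputed values, of which 794 kept their direction and 47 turned. Counts of genes called over the whole table moved from 0 with DESeq2 (35 and 22 for label at 22 and 12 months, 23 and 43 for age under the control and EDA label, 37 for the interaction) and with voom quality weights (1 and 2 for label at 22 and 12 months, 1 for the interaction). At 12 months a mean of at least 2 log2 CPM gave 1, and leaving out replicates gave 0 to 1. For label at 22 months, the ENSMUSG00000119584 share as a covariate turned Hk1 (0.14), Gapdh (-0.16), Pkm (-0.19) and Slc16a1 (0.013), TPM values turned Eno1 (-0.21) and Pkm (-0.018), no filter turned Pfkp (0.0079), and quality weights turned Pfkp (0.54) and Eno1 (-0.0032). Quality weights also turned Hk1 (-0.12) and Ldhb (0.020) for label at 12 months, Gapdh (-0.013) and Pkm (-0.065) for age under the control label, and Pfkp (0.20) and Gapdh (0.10) under the EDA label. The Xist to Y-linked ratio turned Pkm (-0.11) for age under the control label. The cause was not tested. Leaving out replicates, values for label at 22 months ran from -0.66 to 0.37 for Hk1, -0.62 to 0.43 for Pfkp, -0.64 to 0.12 for Aldoa, -0.59 to 0.25 for Eno1 and -0.32 to 0.27 for Pkm. At 12 months they ran from -0.0011 to 0.28 for Hk1, -0.11 to 0.29 for Eno1 and -0.30 to 0.047 for Ldhb. For age they ran from -0.076 to 0.12 for Gapdh and -0.13 to 0.34 for Pkm under the control label, and -1.05 to 0.055 for Hk1, -1.16 to 0.053 for Pfkp and -0.26 to 0.030 for Gapdh under the EDA label. Of 160 recomputed share differences 8 turned, with a lowest adjusted exact permutation p of 0.457. The Pfkp share difference ran from -0.46 to 0.44 percentage points for label at 22 months and -0.16 to 0.16 for age under the control label, and the PKM1 exon share from -1.08 to 3.02 and -1.34 to 5.31 for label at 22 and 12 months. The alternatives on TPM and without the 2 libraries that stood apart were chosen after seeing the data. No paired analysis was made, because the labels state no pairing between libraries. Few reads limit Pgk1 and Slc16a1 most, and counting error is only part of their spread.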
